A study of Homo sapiens with 8 samples.

Results

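The comparison described here asks, gene by gene, whether cells given TNF and Tubuloside B together reached the level that the effects of each agent alone add up to. It used all 8 of the 8 RNA libraries in the series, made from MH7A, an immortalised line of human rheumatoid arthritis synovial cells that serves as a model of fibroblast-like synoviocytes. The 4 groups of 2 libraries were mock cells, cells with tumour necrosis factor (TNF), cells with TNF and Tubuloside B (Tub B, a phenylethanoid glycoside) added at the same time, and cells with Tub B alone. Exposure lasted 24 h, with Tub B at 60 µM. The TNF dose is 20 ng/mL in the design text but 20 ng per microlitre in the TNF labels, and the labels of TNF + Tub B stop before the unit is complete. The mock label names DMSO while the design text describes plain incubation; neither point could be settled here. All groups are the same immortalised line, so no primary cells and no second line were sampled. Libraries are numbered by the replicate number in their titles. Nothing in the labels ties the 2 libraries of a group to separate cultures, so p-values measure the spread between these libraries alone, which may be technical.

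TNF binds its receptor and recruits adaptor proteins and ubiquitin ligases that activate the kinase TAK1. TAK1 in turn drives the IκB kinases, which release NF-κB, and the MAP kinases, which act on AP-1. In synovial fibroblasts and macrophages TNF is also known to start a slower, second wave through interferon-β, whose signal reaches interferon-stimulated response elements in the promoters of antiviral and antigen presentation genes. Electrophilic or oxidative stress is sensed separately, through NRF2 and its antioxidant targets. The title of the series concerns TAK1 phosphorylation, which RNA counts do not measure.

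A departure is the log2 level of TNF + Tub B minus the log2 level of TNF, minus the difference between Tub B and mock. A value of 0 means that the fold effects multiply, a negative value means that TNF + Tub B stood under the level so expected, and the same number is also the change in the TNF response when Tub B is present. Of the 38173 genes in the table, 16647 had enough reads to be tested. With edgeR's quasi-likelihood test and Benjamini-Hochberg adjustment, the source of every adjusted p below unless another tool is named, 705 genes departed from the sum at an adjusted p below 0.05, or 4.23% of those tested. TNF + Tub B stood below the sum at 532 genes (3.20%) and above it at 173 (1.04%), and 140 departed at least 2-fold, 122 below and 18 above. The 3.20% and 1.04% are the shares to set beside every list count below. They are shares of all tested genes, not of genes that TNF raised. The median departure of all genes was -0.011. The split depended on the scaling: with library totals only it was 379 below and 291 above, so 43.4% of the calls were above in place of 24.5%. The total also depended on single libraries. It was 306 without Tub B library 1, 316 without TNF + Tub B library 1, 324 without TNF library 2, 381 without Tub B library 2, 457 without mock library 1 and 1328 without mock library 2. DESeq2 called 421 genes.

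**Figure D1:**
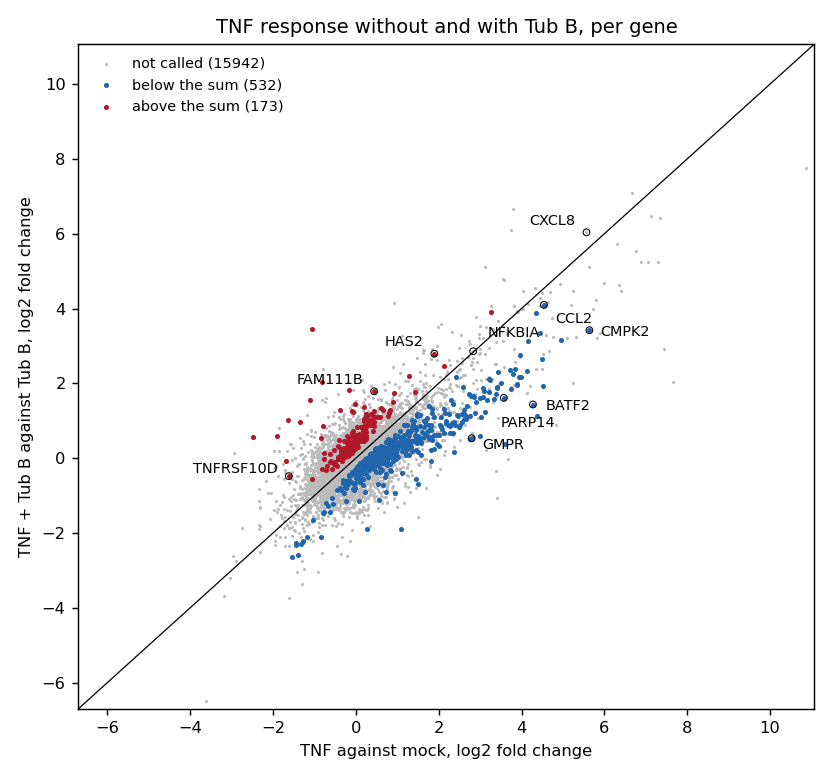
Each point is 1 of 16647 genes, with the log2 fold change of TNF against mock on the x axis and of TNF + Tub B against Tub B on the y axis, and the 2 axes share no library. Genes on the diagonal meet the sum; the 532 called below it (blue) lie mostly at positive TNF responses, while the 173 called above it (red) lie mostly near a TNF response of 0, and named genes are ringed.

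Gene counts summed to between 14073186 and 31937334 per library, and the TNF + Tub B libraries were the smallest, at 16861895 and 14073186. Mitochondrial genes held 3.10% to 3.80% of counts. The libraries of a group differed most in mock, with a chi-square per degree of freedom of 4.77 against 2.16 to 2.50 in the other groups. Of 13 synovial fibroblast markers 12 were tested, with summed levels of 25145 to 29449 CPM (counts scaled to the size of each library) in mock, 25245 to 26268 with TNF, 25968 to 27577 with Tub B and 19949 to 20217 with both. Most of that sum was COL1A1 and COL1A2, so it does not describe every marker. Single markers went both ways, with PDPN higher and COL3A1 lower in TNF + Tub B than in mock. PRG4, which encodes the lubricant of the synovial lining, was too low to be tested, with 2 to 9 counts per library. Summed macrophage markers stayed at 2.20 to 3.14 CPM and T and B cell markers at 1.18 to 2.20 CPM. Endothelial markers summed to 5.47 to 5.53 CPM in mock, 8.56 to 10.6 with TNF, 3.97 to 4.16 with Tub B and 6.13 to 7.07 with both, mostly TEK. Epithelial markers summed to 143.6 to 161.3, 75.2 to 76.3, 86.1 to 107.2 and 58.5 to 59.4 CPM in mock, TNF, Tub B and TNF + Tub B, nearly all of it KRT19, while the defining markers EPCAM and CDH1 had at most 20 and 3 counts in a library. The part of these levels in the results below was not tested.

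Genes of the interferon response had the lowest list medians. Of 40 interferon-stimulated genes tested, 29 were called below the sum, 0 above it and 11 were not called, against the 3.20% of all genes called below. All 40 departures were negative, from -2.57 to -0.52, with a median of -1.37. TNF alone raised all 40 against mock, but only 2857 of the 16647 genes tested (adjusted p below 0.05). The 3.20% is thus not a share of TNF-raised genes. The median log2 fold change with TNF was 3.65 in cells without Tub B and 1.96 in cells with it. Tub B alone gave a median of -0.67 against mock, whereas in TNF-treated cells it gave -2.20. Against mock, 20 of the 40 were called lower with Tub B alone and 0 higher (adjusted p below 0.05). The count was 22 to 36 when any 1 library was left out, 24 in DESeq2 and 30 with all libraries thinned to 14073186 counts.

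PARP14, an ADP-ribosyltransferase of the antiviral and STAT6 responses, shows the departure at a well-counted gene. It stood at 34.1 and 44.2 CPM in mock, 415 and 505 with TNF, 38.4 and 39.9 with Tub B and 96.4 and 144 with both. The single effects multiply to 459.9 CPM, and both TNF + Tub B libraries lay far under that and under both TNF libraries, yet above every library without TNF. The departure was -1.96 ± 0.20 (SE), with an adjusted p of 1.21e-05. Tub B alone left PARP14 within the spread of the mock libraries, unlike the 20 of 40 list members called lower with Tub B alone.

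ISG20, a 3′ exonuclease that degrades viral RNA, had 0.782 and 1.13 CPM in mock, 19.5 and 23.0 with TNF, 0.607 and 0.963 with Tub B and 2.43 and 3.67 with both. Its departure of -2.57 ± 0.45 (adjusted p = 0.00215) put TNF + Tub B 5.73-fold under the expected 17.5 CPM. ISG20 lost this call without Tub B library 2 (adjusted p = 0.0885). CMPK2, a mitochondrial nucleotide kinase, stood at 2.88 and 2.09 CPM in mock, 116 and 141 with TNF, 1.31 and 1.93 with Tub B and 12.4 and 22.7 with both. It departed by -2.22 ± 0.48 (adjusted p = 0.0117). CMPK2 lost this call without Tub B library 1 (adjusted p = 0.0822) and without Tub B library 2 (adjusted p = 0.227). SAMD9L, an antiviral restriction factor, went from 9.49 and 12.6 CPM in mock to 143 and 179 with TNF, against 7.84 and 7.45 with Tub B and 22.3 and 39.3 with both, a departure of -1.91 ± 0.30 (adjusted p = 8.18e-04). In each of these genes both TNF + Tub B libraries lay between the libraries without TNF and the TNF libraries, with no overlap. In bulk RNA a lower level in every cell and fewer responding cells cannot be told apart.

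**Figure D2:**
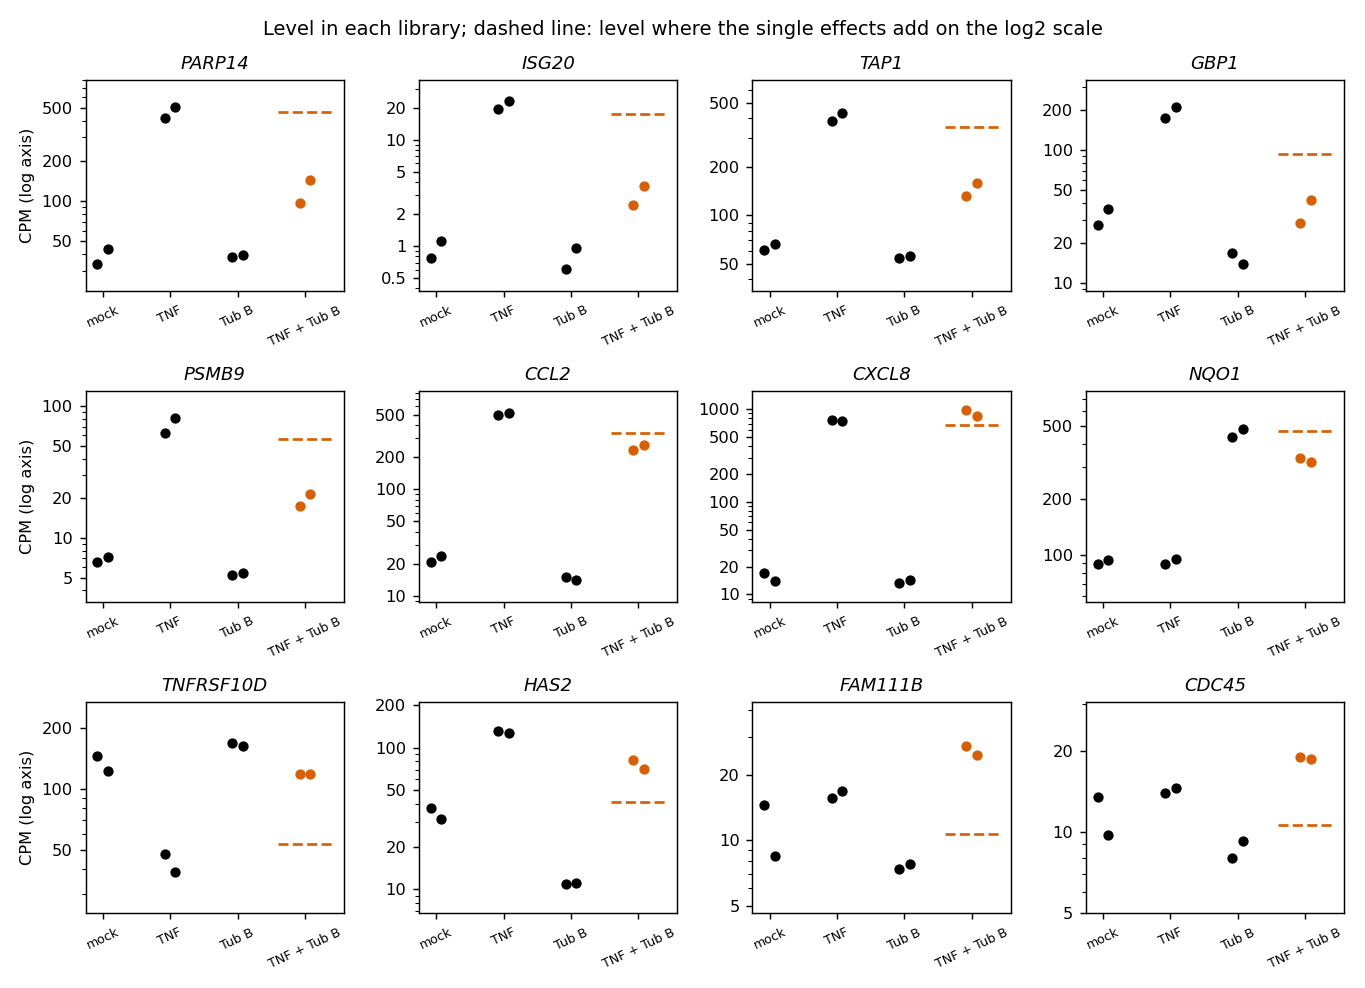
Level of 12 genes in each library, in CPM on a log axis, by group; points are single libraries and the dashed line marks the level where the single effects add on the log2 scale. TNF + Tub B libraries (orange) lie under the line for PARP14, ISG20, TAP1, GBP1, PSMB9, CCL2 and NQO1 and over it for CXCL8, TNFRSF10D, HAS2, FAM111B and CDC45, and CXCL8 did not pass the test.

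Genes of interferon production and signalling were below the sum only in part. Of those tested, 11 were not called and 3 had positive departures, up to 0.38. Of 19 tested genes of interferon production and signalling 8 were called below and 0 above (median -0.36), with 4 below without Tub B library 1 and 5 without Tub B library 2. STAT2, a transcription factor of the complex that binds interferon-stimulated response elements, stood at 132 and 148 CPM in mock, 384 and 439 with TNF, 138 and 137 with Tub B and 175 and 212 with both, a departure of -1.07 ± 0.11 (adjusted p = 1.12e-05). Its TNF response was 1.56 on the log2 scale without Tub B and 0.49 with it. IRF1, a transcription factor that both NF-κB and interferons induce, had 9.77 and 8.29 CPM in mock, 64.2 and 66.9 with TNF, 10.7 and 9.78 with Tub B and 29.997 and 35.3 with both and departed by -1.18 ± 0.14 (adjusted p = 5.94e-05). Against mock, Tub B alone gave log2 fold changes of -0.022 and 0.17 for STAT2 and IRF1, while against TNF it gave -1.09 and -1.01. For IRF7 the values were -0.80 against mock and -1.90 against TNF. With Tub B alone 5 of the 19 genes were called lower than mock and 0 higher (adjusted p below 0.05). IRF7, which amplifies type I interferon, departed by -1.10 ± 0.22 (adjusted p = 0.00638). IRF7 lost this call without Tub B library 1 (adjusted p = 0.0845) and without Tub B library 2 (adjusted p = 0.0671). IFNB1, the gene for interferon-β itself, was too low to be tested: it had 0 counts in both mock libraries, 14 and 5 with TNF, 1 and 0 with Tub B and 3 and 2 with both. It was singled out after its counts were seen.

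Sensors of foreign or misplaced nucleic acid had 9 of 13 tested members below the sum, against 3.20% of all genes, and 0 above (median -0.89). TNF alone raised 12 of the 13 against mock (adjusted p below 0.05). DDX58, which encodes the RNA sensor RIG-I, stood at 15.6 and 18.3 CPM in mock, 262 and 329 with TNF, 11.7 and 13.2 with Tub B and 49.8 and 75.7 with both, 3.46-fold under the expected 217 CPM (departure -1.81 ± 0.24, adjusted p = 1.38e-04). The RIG-I-like regulator DHX58 departed by -1.27 ± 0.18 (adjusted p = 3.46e-04) and the nuclear DNA sensor IFI16 by -0.95 ± 0.14 (adjusted p = 5.72e-04). TLR3, the endosomal receptor of double-stranded RNA, departed by -1.90 ± 0.42 (adjusted p = 0.0134). TLR3 lost this call without mock library 1, TNF + Tub B library 1 or Tub B library 1 (adjusted p between 0.0515 and 0.274) and in DESeq2 (0.0906). Of 5 guanylate-binding proteins, GTPases that attack intracellular pathogens, 4 were called below the sum (median -1.10), and TNF alone raised all 5. GBP4 had 5.54 and 5.75 CPM in mock, 80.4 and 99.4 with TNF, 3.08 and 3.04 with Tub B and 12.2 and 15.5 with both, and departed by -1.82 ± 0.24 (adjusted p = 1.52e-04). GBP1 had 27.2 and 36.0 CPM in mock, 173 and 211 with TNF, 16.8 and 13.99 with Tub B and 28.3 and 42.0 with both, a departure of -1.45 ± 0.22 (adjusted p = 5.18e-04). GBP1 already stood lower with Tub B alone than in mock, so its expected level of 93.6 CPM is under its TNF level, and TNF + Tub B libraries fell short of that as well and overlapped the mock libraries. GBP3 departed by -0.86 ± 0.12 (adjusted p = 3.13e-04). GBP2 departed by -0.66 ± 0.18 (adjusted p = 0.0470). GBP2 lost this call without any 1 library except mock library 2 and TNF library 1 (adjusted p between 0.0706 and 0.245), with DESeq2 size factors in edgeR (0.0535), with library totals only (0.0694), with upper-quartile scaling (0.0598), in DESeq2 (0.109) and in limma-voom (0.0815).

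ISG20, PARP14 and GBP1 carry an interferon-stimulated response element before their start, and their promoters are printed to show where it lies. The motif searched was GAAA, any 2 bases and GAAA again, on both strands, in the 250 bases before each start in RefSeq (GRCh38.p14), and capitals mark the match. Sequences run 5′ to 3′ on the gene's own strand.
ISG20 (chr15:88638766-88639015, plus strand): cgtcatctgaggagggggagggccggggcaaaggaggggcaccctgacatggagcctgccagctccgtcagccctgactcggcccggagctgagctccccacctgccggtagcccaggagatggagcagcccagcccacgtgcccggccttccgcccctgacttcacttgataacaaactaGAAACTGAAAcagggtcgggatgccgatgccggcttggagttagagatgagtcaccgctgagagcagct
PARP14 (chr3:122680589-122680838, plus strand): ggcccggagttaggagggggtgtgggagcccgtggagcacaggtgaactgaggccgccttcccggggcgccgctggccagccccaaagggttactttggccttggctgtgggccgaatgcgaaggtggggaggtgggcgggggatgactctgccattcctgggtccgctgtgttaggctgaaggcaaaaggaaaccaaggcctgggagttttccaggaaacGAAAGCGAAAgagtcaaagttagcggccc
GBP1 (chr1:89065209-89065458, minus strand): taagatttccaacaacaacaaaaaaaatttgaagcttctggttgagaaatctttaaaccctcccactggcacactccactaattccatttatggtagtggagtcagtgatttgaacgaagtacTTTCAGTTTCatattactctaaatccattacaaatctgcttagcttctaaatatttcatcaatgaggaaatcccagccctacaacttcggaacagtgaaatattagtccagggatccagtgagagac
The match ends 59 bases before the start in ISG20, 19 in PARP14 and 117 in GBP1, where it lies on the opposite strand. Promoters were found for 11604 of the 16647 tested genes. The motif was in 2.46% of those (285), in 63.6% of the interferon-stimulated genes (21 of 33 with a promoter), in 43.8% of antigen presentation genes (7 of 16), in 11.7% of the genes called below the sum (47 of 403) and in 0.741% of those called above (1 of 135). The κB motif of NF-κB was in 11.8% of all promoters (1364), 13.6% of those called below (55 of 403), 17.0% of those called above (23 of 135) and 37.0% of the NF-κB targets (10 of 27). The antioxidant response element core TGACNNNGC, bound by NRF2 and small MAF proteins, was in 11.95% (1387), 9.68% (39 of 403) and 14.8% (20 of 135) of all promoters, those called below and those called above. These shares describe letters in the window and do not show binding.

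Antigen presentation by MHC class I was below the sum in 14 of 19 tested members, against 3.20% of all genes, with 0 above and 5 not called. All 19 departures were negative (median -0.54). TNF alone raised 18 of the 19 against mock (adjusted p below 0.05), so here too the 3.20% is not a share of TNF-raised genes. The median TNF response of this list was 1.33 without Tub B and 0.71 with it. TAP1, a subunit of the transporter that carries peptides into the endoplasmic reticulum, had 60.7 and 66.0 CPM in mock, 384 and 434 with TNF, 54.1 and 55.7 with Tub B and 131 and 159 with both. TNF + Tub B stood 2.45-fold under the expected 354 CPM (departure -1.30 ± 0.11, adjusted p = 4.14e-06). The immunoproteasome subunit PSMB9 had 6.58 and 7.16 CPM in mock, 63.0 and 81.7 with TNF, 5.23 and 5.42 with Tub B and 17.5 and 21.7 with both and departed by -1.53 ± 0.22 (adjusted p = 3.59e-04). In both genes the TNF + Tub B libraries lay between the mock and the TNF libraries. PSMB8, another immunoproteasome subunit, departed by -1.01 ± 0.097 (adjusted p = 8.79e-06). HLA-F departed by -1.32 ± 0.20 (adjusted p = 5.07e-04), but its reads may be shared with similar class I genes, so its own value is uncertain.

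**Figure D3:**
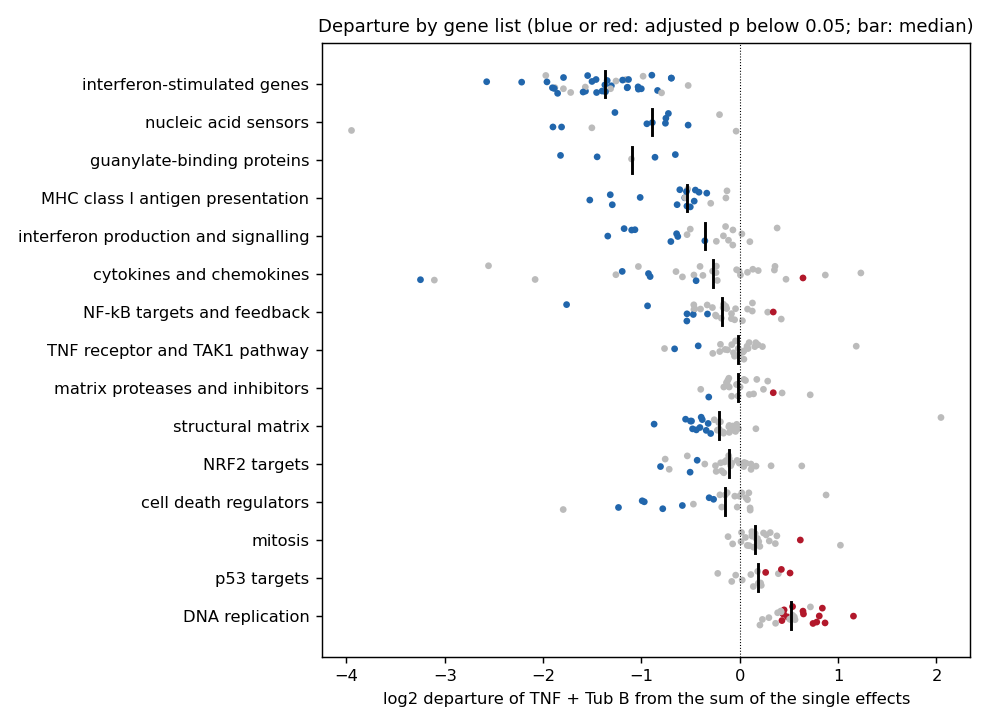
Log2 departure of TNF + Tub B from the sum of the single effects for the tested members of 15 gene lists; each point is a gene, blue or red where called below or above at an adjusted p below 0.05 and grey where not, and the bar is the list's median. Interferon-stimulated genes lie wholly below 0 (median -1.37) and DNA replication genes wholly above (median 0.52), while the TNF receptor and TAK1 list is centred near 0.

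Complement and cell death genes were also among those below the sum. C1R, a protease of the first complement component, stood at 71.4 and 82.7 CPM in mock, 160.1 and 189 with TNF, 81.7 and 83.8 with Tub B and 86.0 and 104 with both (departure -0.98 ± 0.12, adjusted p = 7.94e-05). C1S, its partner protease, departed by -0.90 ± 0.10 (adjusted p = 3.23e-05). Of 12 complement genes 3 were called below, against 3.20% of all genes, and 0 above (median -0.27). Of 23 cell death regulators 7 were below, against the same 3.20%, and 0 above (median -0.15). The count was 2 without TNF library 2 or TNF + Tub B library 1, 3 without Tub B library 2, 4 without mock library 1, TNF library 1 or Tub B library 1, and 4 in DESeq2 and with library totals only. MLKL, the pore-forming effector of necroptosis, had 14.1 and 13.0 CPM in mock, 43.1 and 51.1 with TNF, 12.7 and 11.4 with Tub B and 20.5 and 21.4 with both, and departed by -0.99 ± 0.14 (adjusted p = 3.16e-04). CASP1, the inflammatory caspase, departed by -1.23 ± 0.30 (adjusted p = 0.0260). CASP1 lost this call without mock library 1, TNF library 2, TNF + Tub B library 1, Tub B library 1 or Tub B library 2 (adjusted p between 0.0761 and 0.187). CASP10, an initiator caspase gene, departed by -0.97 ± 0.21 (adjusted p = 0.0104). CASP10 lost this call without TNF library 2, TNF + Tub B library 1 or Tub B library 1 (adjusted p between 0.0551 and 0.0926).

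Cytokines and chemokines, which include direct NF-κB targets, were mixed. Of 31 tested, 5 were below the sum, 1 above and 25 not called (median -0.28); their median TNF response was 3.84 without Tub B and 3.34 with it. The count below was 2 without TNF library 2, TNF + Tub B library 1 or Tub B library 1, 3 without mock library 1 or Tub B library 2, 7 without mock library 2 and 3 in DESeq2. TNFSF13B, the B cell survival factor BAFF, had the largest departure below the sum among the genes that met the size rule: 0.746 and 0.507 CPM in mock, 11.5 and 16.2 with TNF, 1.07 and 0.912 with Tub B and 1.62 and 2.84 with both. The single effects multiply to 21.98 CPM and add to 14.2 CPM, and the departure was -3.25 ± 0.51 (adjusted p = 7.81e-04). CSF1, the macrophage growth factor, stood at 108 and 123 CPM in mock, 491 and 522 with TNF, 87.9 and 92.1 with Tub B and 200.4 and 217 with both, with a departure of -0.93 ± 0.086 (adjusted p = 8.38e-06). For TNFSF13B and CSF1 no TNF + Tub B library overlapped a TNF library. CCL2, the monocyte chemokine, had 20.9 and 23.6 CPM in mock, 502 and 524 with TNF, 15.0 and 13.9 with Tub B and 235 and 261 with both. Its departure was smaller, -0.44 ± 0.10 (adjusted p = 0.0184). CCL2 lost this call without mock library 1, TNF library 2, TNF + Tub B library 1, Tub B library 1 or Tub B library 2 (adjusted p between 0.0553 and 0.172) and with libraries thinned to equal totals (0.0676). CCL5, a T cell chemokine, departed by -1.20 ± 0.29 (adjusted p = 0.0268). CCL5 lost this call without mock library 1, TNF library 2, TNF + Tub B library 1, Tub B library 1 or Tub B library 2 (adjusted p between 0.0666 and 0.242), in DESeq2 (0.0841), in limma-voom (0.0506) and with libraries thinned to equal totals (0.0856). IL15, a growth factor of T and NK cells, departed by -0.91 ± 0.23 (adjusted p = 0.0280). IL15 lost this call without TNF library 1, TNF library 2, TNF + Tub B library 1 or Tub B library 1 (adjusted p between 0.0689 and 0.202) and in DESeq2 (0.0750).

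CXCL10, the T cell chemokine, could not be judged against the sum in CPM ratios because it had only 3 and 1 counts in the mock libraries and 3 and 1 with Tub B, against 4843 and 3578 with TNF and 311 and 397 with both. Its fitted departure of -3.11 ± 1.70 (adjusted p = 0.400) depends on the prior count. CXCL8, the neutrophil chemokine, behaved differently: it had 17.2 and 13.9 CPM in mock, 758 and 739 with TNF, 13.3 and 14.5 with Tub B and 986 and 835 with both. Both TNF + Tub B libraries were above both TNF libraries and above the expected 669 CPM, with a departure of 0.47 ± 0.13 that missed the threshold (adjusted p = 0.0546, 95% interval 0.19 to 0.75). CXCL8 passed it without mock library 2 (adjusted p = 0.00307), without TNF + Tub B library 2 (adjusted p = 0.00897), with DESeq2 size factors in edgeR (0.0486), with library totals only (0.0280), with upper-quartile scaling (0.0430), with no filter (6.20e-06) and with the replicate term (0.0169). IL6 stood at 1.21 and 1.64 CPM in mock, 28.1 and 32.8 with TNF, 0.793 and 0.861 with Tub B and 13.4 and 14.8 with both. Its TNF + Tub B level was 1.26-fold under the sum, but the interval of the departure ran from -1.08 to 0.33 (adjusted p = 0.649), so departures of either sign remain possible. CXCL5, another neutrophil chemokine and the 1 list member called above the sum, departed by 0.64 ± 0.17 (adjusted p = 0.0388). It was named after its value was seen. CXCL5 lost this call without mock library 2, TNF library 2, TNF + Tub B library 1, Tub B library 1 or Tub B library 2 (adjusted p between 0.0674 and 0.229) and in limma-voom (0.102).

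Canonical NF-κB targets had a smaller median departure than the interferon lists. Of 30 NF-κB targets and feedback regulators 6 were below, against 3.20% of all genes, 1 was above and 23 were not called; 23 of the 30 departures were negative (median -0.18), and their median TNF response was 1.44 without Tub B and 1.25 with it. The count below was 10 without mock library 2 and 6 without any other library. The call above was PLAU, described with the proteases below, and 0 were above without any 1 library except mock library 2 and TNF library 1. ICAM1, a leukocyte adhesion molecule, had 11.4 and 14.9 CPM in mock, 287 and 294 with TNF, 7.56 and 5.83 with Tub B and 144 and 142 with both. On the log2 scale Tub B gave -0.94 against mock and -1.02 against TNF, so the expected 148 CPM was nearly met (departure -0.084 ± 0.14, adjusted p = 0.841, interval -0.39 to 0.22). NFKBIA, which encodes the inhibitor IκBα, stood at 28.0 and 33.8 CPM in mock, 220.4 and 214 with TNF, 24.4 and 23.8 with Tub B and 172 and 178 with both, against an expected 169 CPM (departure 0.027 ± 0.095, adjusted p = 0.931, interval -0.17 to 0.23). These intervals limit a departure of ICAM1 or NFKBIA to less than 0.4 on the log2 scale in either direction. The interval of TNFAIP3, -0.64 to -0.31, overlaps that of ICAM1 but not that of NFKBIA. The genes were not tested against each other. TNFAIP3, the ubiquitin-editing feedback inhibitor A20, had 25.4 and 27.7 CPM in mock, 536 and 546 with TNF, 21.1 and 21.3 with Tub B and 315 and 311 with both and departed by -0.47 ± 0.078 (adjusted p = 0.00123). TRAF1, a receptor adaptor, had the largest departure on the NF-κB list, -1.76 ± 0.27 (adjusted p = 6.93e-04), at 1.32 and 2.14 CPM in mock, 25.8 and 24.8 with TNF, 2.33 and 1.72 with Tub B and 9.31 and 9.22 with both. The RNase ZC3H12A departed by -0.94 ± 0.15 (adjusted p = 9.71e-04), TNFAIP2 by -0.54 ± 0.076 (adjusted p = 2.91e-04) and N4BP1, an inhibitor of NF-κB signalling, by -0.54 ± 0.099 (adjusted p = 0.00326). These 4 calls and that of TNFAIP3 held in every fit without 1 library.

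Of 25 tested genes of the TNF receptor and TAK1 pathway itself, 2 were below the sum, 0 above and 23 not called, with departures from -0.77 to 1.18 (median -0.016). The count below was 3 without mock library 2, 2 without Tub B library 2 and 1 without any other library, and 1 in DESeq2 and with library totals only. MAP3K7, which encodes TAK1, had 58.4 and 64.9 CPM in mock, 60.2 and 61.0 with TNF, 67.4 and 64.4 with Tub B and 62.6 and 56.5 with both (departure -0.12 ± 0.089, adjusted p = 0.551, interval -0.31 to 0.064). Both Tub B libraries of MAP3K7 were above the libraries with TNF, alone or with Tub B, and the mock libraries overlapped every group. RBCK1, which encodes HOIL-1 of the linear ubiquitin ligase complex, had 103 and 107 CPM in mock, 174 and 193 with TNF, 102 and 99.3 with Tub B and 109 and 113 with both and departed by -0.66 ± 0.076 (adjusted p = 3.60e-05). The receptor adaptor TRADD departed by -0.42 ± 0.10 (adjusted p = 0.0243). TRADD lost this call without any 1 library except mock library 2 and Tub B library 2 (adjusted p between 0.0504 and 0.157), with library totals only (0.0600) and in DESeq2 (0.102).

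Matrix proteases gave 1 call in each direction among 23 tested (median -0.018). The count above was 3 without mock library 2 and with library totals only, and the count below was 2 without mock library 2. MMP1, the interstitial collagenase, had 303 and 224 CPM in mock, 657 and 647 with TNF, 265 and 261 with Tub B and 925 and 824 with both, over an expected 651 CPM. Both TNF + Tub B libraries exceeded both TNF libraries, but the departure of 0.43 ± 0.12 missed the threshold (adjusted p = 0.0638). MMP1 passed it without mock library 2 (adjusted p = 1.33e-06), with library totals only (0.0327), with upper-quartile scaling (0.0489), with no filter (2.05e-10), with the replicate term (0.0103) and with libraries thinned to equal totals (0.0297). MMP3, stromelysin, stood at 3271 and 3364 CPM in mock, 5982 and 6393 with TNF, 3525 and 3611 with Tub B and 7419 and 7584 with both, a departure of 0.17 ± 0.059 (adjusted p = 0.124) that passed with library totals only (0.0212) and with no filter (0.00383). PLAU, the urokinase plasminogen activator, was the call above the sum, with 71.0 and 62.4 CPM in mock, 184 and 174 with TNF, 67.3 and 70.3 with Tub B and 229.6 and 236 with both and a departure of 0.34 ± 0.081 (adjusted p = 0.0205). PLAU lost this call without any 1 library except mock library 2 and TNF library 1 (adjusted p between 0.0654 and 0.163). The lysosomal protease CTSK was the call below, -0.32 ± 0.063 (adjusted p = 0.00644). CTSK lost this call without TNF library 2 (adjusted p = 0.0508). PTGS2, the inducible cyclooxygenase, had 50.4 and 59.3 CPM in mock, 66.0 and 74.98 with TNF, 40.4 and 35.4 with Tub B and 34.97 and 41.9 with both and a departure of -0.35 ± 0.13 (adjusted p = 0.173, interval -0.63 to -0.074). PTGS2 passed without mock library 2 (adjusted p = 0.0175) and with no filter (0.0149).

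Several of the largest departures were outside these lists. BATF2, a basic leucine zipper factor of the interferon-γ response, had 1.81 and 1.75 CPM in mock, 32.3 and 37.5 with TNF, 1.96 and 2.03 with Tub B and 3.35 and 7.76 with both, 7.03-fold under the expected 39.1 CPM (departure -2.84 ± 0.42, adjusted p = 3.85e-04). GMPR, a guanosine monophosphate reductase, stood at 5.40 and 7.22 CPM in mock, 36.1 and 50.5 with TNF, 6.44 and 5.07 with Tub B and 6.88 and 10.0 with both (departure -2.26 ± 0.30, adjusted p = 1.34e-04). ODF3B had 1.03 and 1.24 CPM in mock, 8.59 and 9.37 with TNF, 1.07 and 1.17 with Tub B and 1.27 and 2.15 with both (departure -2.42 ± 0.38, adjusted p = 8.45e-04). In all 3 genes the level with Tub B alone lay inside or next to the mock range. PDZD2, a PDZ domain protein, had 2.24 and 1.75 CPM in mock, 9.45 and 11.8 with TNF, 1.91 and 1.72 with Tub B and 1.91 and 2.22 with both (departure -2.19 ± 0.32, adjusted p = 3.81e-04), and here TNF + Tub B overlapped mock. LGALS9, galectin-9, departed by -1.93 ± 0.49 (adjusted p = 0.0316). LGALS9 lost this call without mock library 1, TNF + Tub B library 1, TNF + Tub B library 2, Tub B library 1 or Tub B library 2 (adjusted p between 0.0542 and 0.202) and in limma-voom (0.100).

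**Figure D4:**
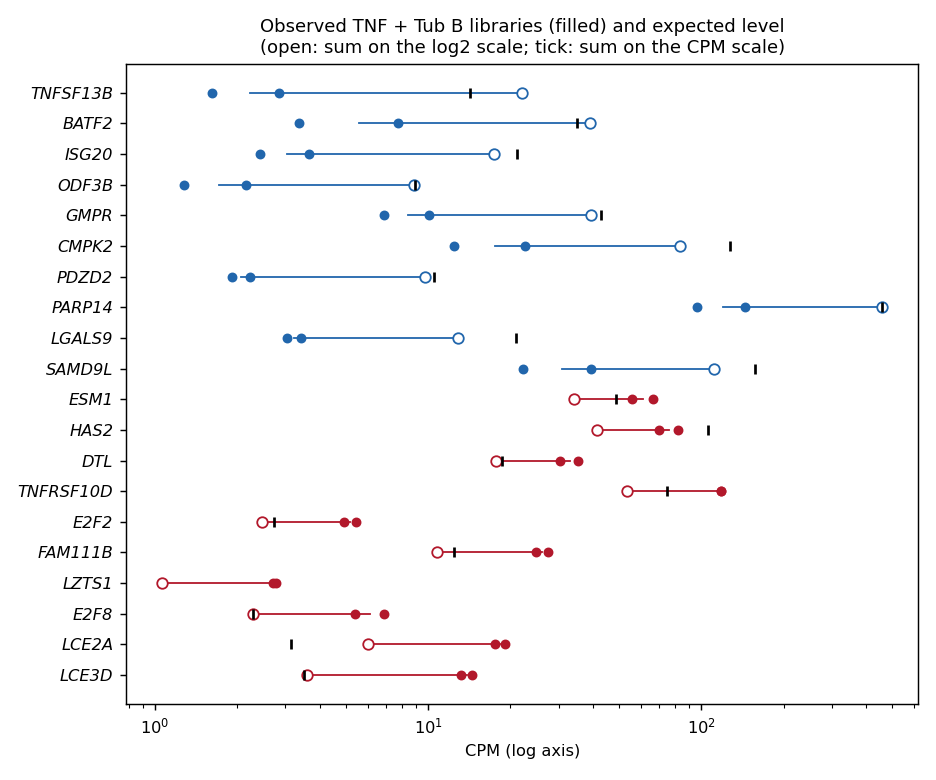
For the 10 largest departures in each direction, filled points are the TNF + Tub B libraries, the open circle is the level where single effects add on the log2 scale, the tick is the level where they add in CPM, and the line joins the open circle to the mean of the libraries; the axis is CPM on a log scale. All 10 lower genes (blue) lie left of both expected levels, HAS2 lies between its circle and its tick, and LZTS1 has no tick because its CPM sum is negative (-0.364).

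Tub B alone raised 27 of 30 tested NRF2 targets against mock, and 3 of the 30 were below the sum, 0 above and 27 not called (median -0.11). The count below was 5 without mock library 2 and 2 without TNF library 2 or Tub B library 2. NQO1, a quinone reductase and NRF2 target, had 88.9 and 93.4 CPM in mock, 89.7 and 94.9 with TNF, 437 and 483 with Tub B and 336 and 319.7 with both. TNF alone left it close to the mock range, yet both TNF + Tub B libraries were under both Tub B libraries (departure -0.51 ± 0.077, adjusted p = 5.86e-04). HMOX1, the inducible heme oxygenase, stood at 53.5 and 59.3 CPM in mock, 81.3 and 87.0 with TNF, 203 and 211 with Tub B and 242 and 214 with both and departed by -0.43 ± 0.088 (adjusted p = 0.00730). HMOX1 lost this call without TNF library 2 (adjusted p = 0.0604) and without Tub B library 2 (adjusted p = 0.0534). In CPM the effects on HMOX1 add to 234, and the TNF + Tub B libraries lay on either side of that at a mean of 228, so its departure rests on the log2 scale. TRIM16 departed by -0.81 ± 0.15 (adjusted p = 0.00392), although its reads may be shared with the similar copy TRIM16L. Without TNF the list's median response to Tub B was 0.89, and with TNF it was 0.73. SLC7A11, the cystine transporter, had 9.35 and 9.30 CPM in mock, 7.67 and 6.81 with TNF, 76.7 and 101 with Tub B and 72.0 and 64.0 with both and nearly met the expected 68.8 CPM (departure -0.028 ± 0.19, adjusted p = 0.968, interval -0.42 to 0.36).

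Aryl hydrocarbon receptor genes had 3 of 9 tested members below the sum and 0 above (median -0.43), NQO1 among them, and 1 without TNF library 2, TNF + Tub B library 1 or Tub B library 2. CYP1B1, a cytochrome P450 enzyme, had 1.03 and 1.30 CPM in mock, 2.38 and 2.98 with TNF, 11.2 and 12.5 with Tub B and 11.8 and 13.5 with both. The effects multiply to 27.3 CPM but add to 13.4, which the observed levels span, so this departure too (-1.11 ± 0.26, adjusted p = 0.0215) is one of the log2 scale. CYP1B1 lost this call without mock library 1, TNF library 2, TNF + Tub B library 1 or Tub B library 2 (adjusted p between 0.0794 and 0.205) and with libraries thinned to equal totals (0.102). The receptor gene AHR departed by -0.43 ± 0.091 (adjusted p = 0.00952). AHR lost this call without TNF library 2, TNF + Tub B library 1 or Tub B library 2 (adjusted p between 0.0643 and 0.0706). STC2, a stress-induced glycoprotein gene, had 299 and 334 CPM in mock, 566 and 603 with TNF, 555 and 601 with Tub B and 709.8 and 757 with both. Each agent alone gave a higher level than mock and both together a higher one still, while the joint level was 1.46-fold under the product (departure -0.54 ± 0.080, adjusted p = 3.98e-04). ATF5, a stress transcription factor, departed by -0.58 ± 0.11 (adjusted p = 0.00550). ATF5 lost this call without Tub B library 1 (adjusted p = 0.0523). These were the 2 of 16 ATF4 response genes below the sum (median 0.055).

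Of 23 genes of sterol and fatty acid synthesis 4 were below the sum and 0 above (median -0.13). HMGCS1, the HMG-CoA synthase gene, had 26.5 and 31.7 CPM in mock, 40.4 and 45.0 with TNF, 39.0 and 37.2 with Tub B and 36.3 and 41.3 with both (departure -0.54 ± 0.12, adjusted p = 0.0167). Each agent alone gave more than mock, and the libraries with both overlapped the TNF and the Tub B libraries. SQLE departed by -0.49 ± 0.10 (adjusted p = 0.00792) and INSIG1 by -0.43 ± 0.11 (adjusted p = 0.0302). From this list 0 genes were called without TNF library 2, TNF + Tub B library 1 or Tub B library 1, 1 was called without Tub B library 2, 2 without mock library 1, 2 in DESeq2 and 2 with library totals only.

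Matrix genes stood below the sum in smaller steps. Of 30 structural matrix genes 12 were below the sum, against 3.20% of all genes, and 0 above (median -0.21). This count was 1 without Tub B library 1, 2 without TNF + Tub B library 1, 3 without TNF library 2, 10 to 18 without any other library and 4 in DESeq2. ELN, elastin, stood at 487 and 644 CPM in mock, 597 and 665 with TNF, 327 and 272 with Tub B and 168 and 198 with both (departure -0.87 ± 0.15, adjusted p = 0.00159). ELN lost this call in DESeq2 (0.0670). COL1A1, a chain of the main fibrillar collagen, had 6962 and 8812 CPM in mock, 7006 and 7429 with TNF, 8038 and 7251 with Tub B and 4888 and 4994 with both (departure -0.50 ± 0.11, adjusted p = 0.00952). COL1A1 lost this call without TNF library 2, TNF + Tub B library 1 or Tub B library 1 (adjusted p between 0.0599 and 0.0937) and in DESeq2 (0.195). In both genes the TNF + Tub B libraries were under every other library. COL3A1, another fibrillar collagen, departed by -0.55 ± 0.11 (adjusted p = 0.00497). COL3A1 lost this call without TNF + Tub B library 1 (adjusted p = 0.0530), without Tub B library 1 (adjusted p = 0.0536) and in DESeq2 (0.112). COL4A1 of the basement membrane departed by -0.49 ± 0.11 (adjusted p = 0.0106). COL4A1 lost this call without TNF library 2 (adjusted p = 0.0585), without Tub B library 1 (adjusted p = 0.101) and in DESeq2 (0.129). The synovial fibroblast markers, which include some of the same collagens, had 4 of 12 below the sum and 0 above (median -0.23), with 0 without TNF + Tub B library 1, 1 without TNF library 2 or Tub B library 1, and 1 in DESeq2. Among them COL1A2 departed by -0.39 ± 0.084 (adjusted p = 0.0106). COL1A2 lost this call without TNF library 2, TNF + Tub B library 1 or Tub B library 1 (adjusted p between 0.0720 and 0.0754) and in DESeq2 (0.142). The growth factor receptor PDGFRA departed by -0.34 ± 0.073 (adjusted p = 0.0109). PDGFRA lost this call without TNF library 2, TNF + Tub B library 1 or Tub B library 2 (adjusted p between 0.0658 and 0.0778) and with library totals only (0.0525). CDH2, N-cadherin, departed by -0.45 ± 0.10 (adjusted p = 0.0184). CDH2 lost this call without TNF library 2, TNF + Tub B library 1 or Tub B library 1 (adjusted p between 0.0948 and 0.159) and in DESeq2 (0.233).

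Above the sum, DNA replication genes were the group with most members called. Of 27 tested, 14 were above and 0 below, against 1.04% of all genes called above, and all 27 departures were positive, from 0.20 to 1.16 (median 0.52). The median log2 response to TNF was 0.18 without Tub B and 0.67 with it. Tub B alone gave a median of -0.23 against mock and 0.26 against TNF in cells that had TNF. The list's median log2 CPM per library was 4.60 and 4.09 in mock, 4.66 and 4.47 with TNF, 4.13 and 4.16 with Tub B and 5.04 and 4.84 with both. The TNF + Tub B libraries were thus the highest, while the mock libraries differed from each other by about as much as the departure itself. The number called was 0 without Tub B library 1, 1 without TNF + Tub B library 1, 3 without mock library 1, 3 without Tub B library 2, 5 without TNF library 2, 10 without TNF library 1, 11 without TNF + Tub B library 2 and 22 without mock library 2, and DESeq2 called 8. The part of the mock libraries' difference in this result was not tested.

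**Figure D5:**
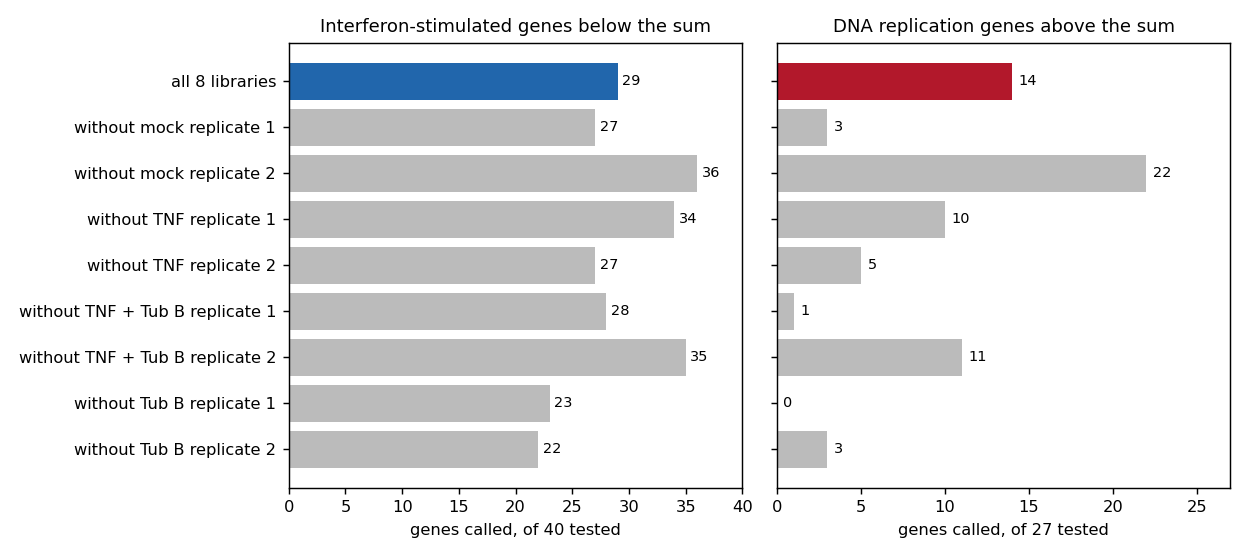
Number of genes called, with all 8 libraries and with each library left out in turn, for the 40 interferon-stimulated genes below the sum (left) and the 27 DNA replication genes above it (right). The interferon count stays between 22 and 36, whereas the replication count runs from 0 without Tub B library 1 to 22 without mock library 2.

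FAM111B, a protease gene of replicating cells, had 14.6 and 8.51 CPM in mock, 15.8 and 16.9 with TNF, 7.37 and 7.80 with Tub B and 27.3 and 24.9 with both. The expected level was 10.7 CPM (departure 1.35 ± 0.22, adjusted p = 0.00127). Its call held without any 1 library, and both TNF + Tub B libraries were above every other library. DTL, a substrate receptor of the ubiquitin ligase that clears licensing factors in S phase, stood at 21.7 and 16.2 CPM in mock, 23.6 and 22.2 with TNF, 13.3 and 15.8 with Tub B and 35.4 and 30.5 with both (departure 0.93 ± 0.17, adjusted p = 0.00245). DTL lost this call without Tub B library 1 (adjusted p = 0.0523). CDC45, a part of the replicative helicase, had 13.4 and 9.76 CPM in mock, 13.98 and 14.5 with TNF, 7.98 and 9.27 with Tub B and 19.0 and 18.6 with both (departure 0.87 ± 0.18, adjusted p = 0.00761). CDC45 lost this call without mock library 1 (adjusted p = 0.0751) and without Tub B library 1 (adjusted p = 0.0937). For DTL and CDC45 as well, TNF + Tub B was highest and Tub B alone was under mock. E2F8, a repressor of the E2F family, departed by 1.48 ± 0.34 (adjusted p = 0.0167). E2F8 lost this call without mock library 1, TNF library 2, TNF + Tub B library 1, Tub B library 1 or Tub B library 2 (adjusted p between 0.0642 and 0.201). E2F2, an activator of the same family, departed by 1.16 ± 0.32 (adjusted p = 0.0476). E2F2 lost this call without any 1 library except mock library 2 (adjusted p between 0.0784 and 0.436), in DESeq2 (0.154), in limma-voom (0.0666), with the stricter filter (0.05004) and with libraries thinned to equal totals (0.203). CCNE2, cyclin E2, departed by 0.84 ± 0.21 (adjusted p = 0.0329). CCNE2 lost this call without any 1 library except mock library 2 (adjusted p between 0.0824 and 0.228), in DESeq2 (0.175) and with libraries thinned to equal totals (0.0925). MCM10, a DNA replication factor, departed by 0.81 ± 0.18 (adjusted p = 0.0163). MCM10 lost this call without mock library 1, TNF library 2, TNF + Tub B library 1, Tub B library 1 or Tub B library 2 (adjusted p between 0.0754 and 0.150) and with libraries thinned to equal totals (0.0658). Mitosis genes had 1 of 25 above the sum (AURKB, 0.62 ± 0.15, adjusted p = 0.0230, named after its value was seen), 0 below and a median of 0.16. AURKB lost this call without any 1 library except mock library 2 and TNF + Tub B library 1 (adjusted p between 0.0619 and 0.176), and 8 mitosis genes were called above without mock library 2.

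E2F factors drive replication genes through a short promoter element, and the promoters of DTL and E2F2 are printed because each holds one. The motifs searched were TTTCGCGC, TTTGGCGC and TTTCCCGC on both strands in the same window, and capitals mark the match.
DTL (chr1:212035498-212035747, plus strand): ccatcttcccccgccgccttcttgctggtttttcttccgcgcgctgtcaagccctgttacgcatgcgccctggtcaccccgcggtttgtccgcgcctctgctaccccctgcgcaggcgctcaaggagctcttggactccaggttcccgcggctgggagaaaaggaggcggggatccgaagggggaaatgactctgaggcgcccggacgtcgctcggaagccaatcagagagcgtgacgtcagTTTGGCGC
E2F2 (chr1:23531234-23531483, minus strand): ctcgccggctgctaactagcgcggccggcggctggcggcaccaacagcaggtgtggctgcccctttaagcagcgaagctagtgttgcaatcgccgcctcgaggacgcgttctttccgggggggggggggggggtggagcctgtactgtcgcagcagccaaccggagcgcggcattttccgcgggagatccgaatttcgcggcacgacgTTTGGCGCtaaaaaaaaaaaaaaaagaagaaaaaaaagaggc
The match ends 0 bases before the start in DTL and 34 bases before it in E2F2. One of these motifs was in 3.73% of all matched promoters (433), in 45.8% of the replication genes (11 of 24), in 14.1% of the genes called above the sum (19 of 135) and in 2.23% of those called below (9 of 403). None of the 24 replication promoters held the interferon motif.

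TNFRSF10D, a decoy receptor for the death ligand TRAIL, had the lowest adjusted p among the named genes above the sum. It stood at 145 and 122 CPM in mock, 47.6 and 38.7 with TNF, 168 and 162 with Tub B and 118 and 118 with both. TNF alone took it far under mock, and with Tub B present the TNF response was -0.48 in place of -1.62 on the log2 scale (departure 1.14 ± 0.11, adjusted p = 8.79e-06). HAS2, a hyaluronan synthase, stood at 37.4 and 31.4 CPM in mock, 131 and 127 with TNF, 10.9 and 11.1 with Tub B and 81.9 and 70.2 with both. Its fold response to TNF was larger with Tub B (departure 0.90 ± 0.12, adjusted p = 2.40e-04), and Tub B alone had put it at -1.66 against mock on the log2 scale. In CPM the effects add to 106, and the joint level was under that. Summing in CPM in place of log2 kept the sign of 526 of the 532 genes below and 172 of the 173 above. HAS2 was the exception above. Only the sign of a difference of group means was compared, with no test. HMOX1 and CYP1B1 count as kept, at -5.95 and -0.69 CPM. ICAM1, which nearly met the log2 sum, lay at -141 CPM, so a kept sign does not show that the scale matters little. ESM1, an endothelial proteoglycan gene also made by fibroblasts, departed by 0.90 ± 0.23 (adjusted p = 0.0358). ESM1 lost this call without any 1 library except mock library 2 and TNF + Tub B library 2 (adjusted p between 0.0887 and 0.302), in DESeq2 (0.461) and in limma-voom (0.0517).

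Targets of p53 had 3 of 14 tested members above the sum and 0 below (median 0.19), with 2 to 4 above when any 1 library was left out and 5 with library totals only. DDB2, a DNA damage recognition factor, had 43.8 and 40.5 CPM in mock, 40.3 and 39.2 with TNF, 35.05 and 35.8 with Tub B and 47.7 and 47.3 with both. Each agent alone lay under the mean of mock and both together lay above every other library (departure 0.51 ± 0.089, adjusted p = 0.00210). ZMAT3, an RNA-binding p53 target, stood at 198 and 193 CPM in mock, 121 and 115 with TNF, 196 and 199 with Tub B and 155 and 165 with both (departure 0.42 ± 0.067, adjusted p = 8.72e-04). The cell cycle inhibitor CDKN1A departed by 0.26 ± 0.073 (adjusted p = 0.0491). CDKN1A lost this call without any 1 library except mock library 1 (adjusted p between 0.0774 and 0.258) and with the stricter filter (0.0504). LZTS1, a leucine zipper protein gene, had 5.15 and 5.07 CPM in mock, 2.88 and 2.82 with TNF, 1.73 and 2.08 with Tub B and 2.77 and 2.702 with both. Either agent alone lay under mock, and the libraries with both were close to those with TNF alone (departure 1.37 ± 0.27, adjusted p = 0.00594). LZTS1 lost this call without Tub B library 1 (adjusted p = 0.0540). The late cornified envelope genes LCE3D (1.99 ± 0.32, adjusted p = 9.09e-04) and LCE2A (1.66 ± 0.30, adjusted p = 0.00290) had the largest departures above the sum among genes that met the size rule. They belong to a cluster of near-identical copies that may share reads, their mock libraries differed widely (7.07 and 3.33 CPM for LCE3D, 23.3 and 11.3 for LCE2A), and LCE2A was not called without Tub B library 1 (adjusted p = 0.0541) and in DESeq2 (0.0692).

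Lists with few or no calls complete the account. The unfolded protein response (14 tested) and the glycolysis and hypoxia response (18 tested) had 0 calls in either direction, with medians of -0.11 and 0.072. DUSP4, a MAP kinase phosphatase, was the 1 of 19 AP-1 and immediate-early genes called, above the sum by 0.38 ± 0.098 (adjusted p = 0.0343). DUSP4 lost this call without any 1 library except mock library 2 (adjusted p between 0.0512 and 0.208), in DESeq2 (0.0840) and with libraries thinned to equal totals (0.0512). CTGF was the 1 of 20 TGF-β and YAP responsive genes called, below by -0.69 ± 0.11 (adjusted p = 7.81e-04), and 8 were below without mock library 2. MAFF, a small MAF partner of NRF2, was the 1 of 8 NRF2 regulators called, above by 0.40 ± 0.088 (adjusted p = 0.0128). MAFF lost this call without mock library 1, TNF library 2, TNF + Tub B library 1, Tub B library 1 or Tub B library 2 (adjusted p between 0.0586 and 0.122). The zinc exporter SLC30A1 was the 1 of 11 metallothionein and metal genes (-0.55 ± 0.077, adjusted p = 2.63e-04), the chaperone DNAJA1 the 1 of 12 heat shock genes (-0.46 ± 0.065, adjusted p = 3.09e-04) and PTGES, a prostaglandin E synthase, the 1 of 10 prostaglandin genes (-0.56 ± 0.15, adjusted p = 0.0468), all below. PTGES lost this call without mock library 1, TNF library 2, TNF + Tub B library 1, Tub B library 1 or Tub B library 2 (adjusted p between 0.154 and 0.252), with DESeq2 size factors in edgeR (0.0543), with library totals only (0.0737), with upper-quartile scaling (0.0614), in DESeq2 (0.129), in limma-voom (0.0552) and with libraries thinned to equal totals (0.0619). Without mock library 2 the count below was 3 prostaglandin genes and 2 heat shock genes. The genes of these lists were named after their values were seen.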

How the data were processed

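The values are gene counts deposited by the authors in 1 table, with a column per library and 0 columns left unassigned. The alignment used STAR 2.7.0 and the counting featureCounts, per the submitters' processing notes, with no version of the latter given in the sources used here; mm10 and hg19 are named with no role. Per the labels' protocols, the poly(A) libraries do not keep strand, so antisense partners share reads. Genes passing filterByExpr by group were fitted in edgeR 4.0.16 (R 4.3.3) with TMM scaling and 1 coefficient per group over all 8 libraries (4 residual and 13.1 prior degrees of freedom). A fit without 1 library assumes that the lone library of its group varies like the others. Alternatives used DESeq2 1.42.0 and limma-voom (limma 3.58.1).

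Named genes were a fixed panel of 14, the 10 largest departures per direction (at least 5 CPM in the highest group, at least 10 counts in every group, same sign in every fit without 1 library; pseudogenes, antisense and clone names passed over), and up to 4 called members of each list with at least 2 calls. The members, the 33 gene lists (606 symbols, 555 tested) and this rule were chosen with earlier results of these data known. Some genes that the rule names are not reported here, and list counts and medians include them. In simulated counts, of which 16388 genes passed the filter, 27 of 67 departures of 1.5-fold, 39 of 67 of 2-fold and 55 of 66 of 4-fold were called, and 8 of 16192 unchanged genes; 4 of the 200 changed genes did not pass the filter and count as not called. The simulation gave all groups the same spread per gene and drew each gene independently, whereas the real mock libraries differed more than those of other groups. Its 8 false calls may therefore be too few for the real data. Intervals are 95% intervals of the fitted departure.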

Additional observations from a re-analysis of the deposited data

Results flagged for a closer look

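The TNF response differed between cells with and without Tub B, by the test of the difference itself, at 532 genes whose log2 response was lower with Tub B and 173 whose response was higher. Of the fixed panel, 4 genes were among them. The response of CCL2 changed by -0.44 on the log2 scale with Tub B, that of TNFAIP3 by -0.47, that of NQO1 by -0.51 and that of HMOX1 by -0.43. With 2 libraries per group, single libraries could not be tested as outliers.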

How the results depend on the processing

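With 2 libraries per group, single libraries set much of what passed. In simulated counts 27 of 67 departures of 1.5-fold, 39 of 67 of 2-fold and 55 of 66 of 4-fold were called, so larger departures were missed as well. Leaving out 1 library gave 306 to 1328 calls, 28 to 480 above and 277 to 848 below. Interferon-stimulated genes had 22 to 36 calls and a median of -1.71 to -1.11, antigen presentation genes 12 to 16 and -0.58 to -0.47, and DNA replication genes 0 to 22 and 0.32 to 0.61. DESeq2 gave 421 calls (341 below, 80 above; 8 replication genes). An adjusted p below 0.01 left 326 (289 below, 37 above; 4 replication genes), and a 2-fold minimum left 140 (122 and 18; 4 antigen presentation genes and 1 replication gene). Library totals only gave 291 above and 379 below and an antigen presentation median of -0.47, and moved the median of all genes to 0.053. The cause of these differences was not tested, apart from the stricter thresholds themselves. With 1 library left out, the median of AP-1 genes ran from -0.011 (without Tub B replicate 2) to 0.0995, and that of ATF4 genes from -0.012 (without TNF replicate 1) to 0.093. The mean level of HAS2 was 29.6 CPM under the CPM sum, a difference of -29.6. Over 1890 values of the 90 genes chosen by the naming rule under 21 alternatives, 1622 were counted as unchanged. Of the rest, 250 lost the call, 17 gained it and 1 called departure reversed. Unchanged includes genes not called in either fit whose sign changed, such as NFKBIA (0.027 with all libraries, -0.096 without mock library 2). The alternatives with another prior count and with the sum in CPM gave no p-value, so no threshold applied there and no call could be lost. Part of the unchanged count was thus fixed in advance.

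Over all tested genes, the deviations of same-numbered libraries were not correlated (6 correlations from -0.048 to 0.047). Correlations over all genes cannot show whether a smaller set of genes moved with the replicate number. The median log2 CPM of interferon-stimulated genes in libraries 1 and 2 was 3.99 and 4.47 in mock and 7.48 and 7.80 with TNF. It was 5.12 and 5.67 with both and, in the other direction, 3.48 and 3.39 with Tub B. Whether the numbers mark a pairing was not tested further. With the replicate number as a block 914 genes were called (257 above, 657 below), all 705 of the unblocked calls among them.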
